A study of Mus musculus with 12 samples.

Results

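The genes described here encode the enzymes with which a cell removes superoxide, hydrogen peroxide and lipid peroxides, together with NRF2, the transcription factor that induces many of them. They were taken by symbol: the glutathione S-transferase, microsomal transferase, glutathione peroxidase and peroxiredoxin families by the start of the name, and superoxide dismutases, catalase, glutathione-synthesis enzymes, thioredoxins and their reductases, sulfiredoxin, heme oxygenases, Nqo1, Msrb1, Nfe2l2 and Keap1 singly. A total of 52 such genes had a transcript cluster (the set of array probes that reads one gene) annotated with a single symbol, out of 22180 genes measured in that way and 41345 clusters in all. Where a gene had more than 1 cluster, the one with the highest mean was used, which touched Keap1 only. Prdx1, Gsta1, Gsta2, Gstm5 and Gstz1 were read only by clusters that carried several symbols and were not named. Prdx5 and Prdx6 were not analysed here.

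RNA came from the hippocampus of 12 male mice aged 18 months, with 1 Affymetrix Mouse Gene 2.0 ST array per mouse and 3 mice in each of 4 groups. Wild-type mice (WT) and App NL-F/NL-F mice (App below) were fed a regular control diet (RD) or a high-fat diet (HFD) from the age of 6 months, for 12 months. The App mice are homozygous knock-ins that carry the Swedish and Iberian mutations beside humanized Aβ residues in the mouse App gene, whose own promoter drives them, and the line had been backcrossed to C57BL/6J. The labels call the HFD-fed mice of both genotypes diabetic and the RD-fed mice non-diabetic. All mice were perfused with saline before the hippocampus was taken, and the labels call the 3 mice of a group biological replicates. Each p-value below therefore sets a difference between groups against the spread between mice. In the fit to all 12 arrays that spread was pooled over the 4 groups and moderated over all clusters.

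Superoxide dismutases turn superoxide into hydrogen peroxide, which catalase, the glutathione peroxidases and the peroxiredoxins then reduce. Glutathione is made by glutamate-cysteine ligase and glutathione synthetase, is spent by the peroxidases and transferases, and is returned to its reduced form by glutathione reductase, while thioredoxin and thioredoxin reductase do the same work for peroxiredoxins. KEAP1 holds NRF2 (encoded by Nfe2l2) for degradation. When electrophiles or peroxides modify KEAP1, NRF2 accumulates and binds antioxidant response elements in the promoters of genes such as Nqo1, Hmox1, Gclc, Gclm, Txnrd1 and Srxn1. In brain this programme is best known from astrocytes.

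The core of the antioxidant response element, TGACNNNGC, was searched on both strands in RefSeq promoters (build GRCm38.p6). A promoter ran from 250 bases before an annotated start to 50 bases after it, and a gene could have several. Promoters were held for 45 of the 52 genes, and the core occurred in 8 of the 45 (17.8%), against 14% of the 27025 genes with a promoter in the same table and 12.4% of its 32851 promoters. None of the 8 overlapped the AP-1 sequence TGACTCA. The 7 that lie before the start of their promoter, at positions between -240 and -56, are shown because NRF2 binds this element in some of these genes. Whether NRF2 acts at any of the 7 was not tested. The one in Srxn1 lies after the start. For Txnrd1 and Gstm7 that start lies within the annotated span of the gene, and so does the match. For Gclm and Gsta3 the start of the promoter also lies within the span, while the match lies before it. Capitals mark the match with 10 bases on either side, read along the strand of the gene, and a core on the opposite strand appears as GCNNNGTCA.
Nfe2l2 (chr2:75704885-75704913, minus strand): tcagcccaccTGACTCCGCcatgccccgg
Gclm (chr3:122245413-122245441, plus strand): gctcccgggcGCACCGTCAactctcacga
Txnrd1 (chr10:82859104-82859132, plus strand): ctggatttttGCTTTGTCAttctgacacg
Sod1 (chr16:90220696-90220724, plus strand): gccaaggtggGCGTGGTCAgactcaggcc
Mgst1 (chr6:138140461-138140489, plus strand): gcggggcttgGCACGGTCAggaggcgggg
Gsta3 (chr1:21240454-21240482, plus strand): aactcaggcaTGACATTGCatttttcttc
Gstm7 (chr3:107931725-107931753, minus strand): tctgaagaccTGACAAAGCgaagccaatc
A match is a description of these letters and not a mapped binding site.

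The 12 arrays had medians between 4.78 and 4.84 on the log2 scale and correlated with each other at 0.982 to 0.988 across clusters. None of the arrays was a copy of another (0 identical pairs). The mean signal exceeded an intensity of 100 for 23.8% of all clusters. Neuronal markers (6 of 6) and dentate granule cell markers (3 of 3) were all above that intensity, whereas 7 of 9 choroid plexus markers and 5 of 7 meningeal fibroblast markers were below it. Only 1 cluster of the whole table passed an adjusted p of 0.05, in the genotype effect over both diets: Cst7, which encodes cystatin F, with a log2 difference of 1.17 (limma, adjusted p = 0.00608). It is named after its value was seen.

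Of the 52 defence genes, 26 had a mean signal above an intensity of 100 and 26 below it. The bright ones included the enzymes that most tissues use: Sod1, Sod2 and Cat, both glutamate-cysteine ligase subunits, Gsr, Gpx1, Gpx4, Prdx2, Prdx3 and the cytosolic and mitochondrial thioredoxins. By family, 6 of the 17 cytosolic glutathione S-transferases, 2 of the 4 mitochondrial and microsomal transferases, 2 of the 9 glutathione peroxidases, 3 of the 4 glutathione-synthesis enzymes, 6 of the 8 peroxiredoxin and thioredoxin genes, 3 of the 4 dismutase and catalase genes, 3 of the 5 NRF2 pathway genes and Msrb1 were bright. Signals of different clusters depend on their probes and are not set against each other as amounts of RNA.

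The SD between mice of one group, on the log2 scale, was 0.05 to 0.19 with a median of 0.09 for the 26 bright genes and 0.06 to 0.48 with a median of 0.16 for the 26 dim ones. The median over all bright clusters was also 0.09, and over all dim clusters 0.21. The least variable was Gclm, the modifier subunit of glutamate-cysteine ligase, at 0.05. At the other end stood Gpx8 at 0.48 and Gpx2 at 0.47, an endoplasmic reticulum peroxidase and the gut-type glutathione peroxidase. The 95% interval of Gpx2 for App HFD against App RD, from -0.78 to 0.73, shows how little such clusters can resolve.

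**Figure D1:**
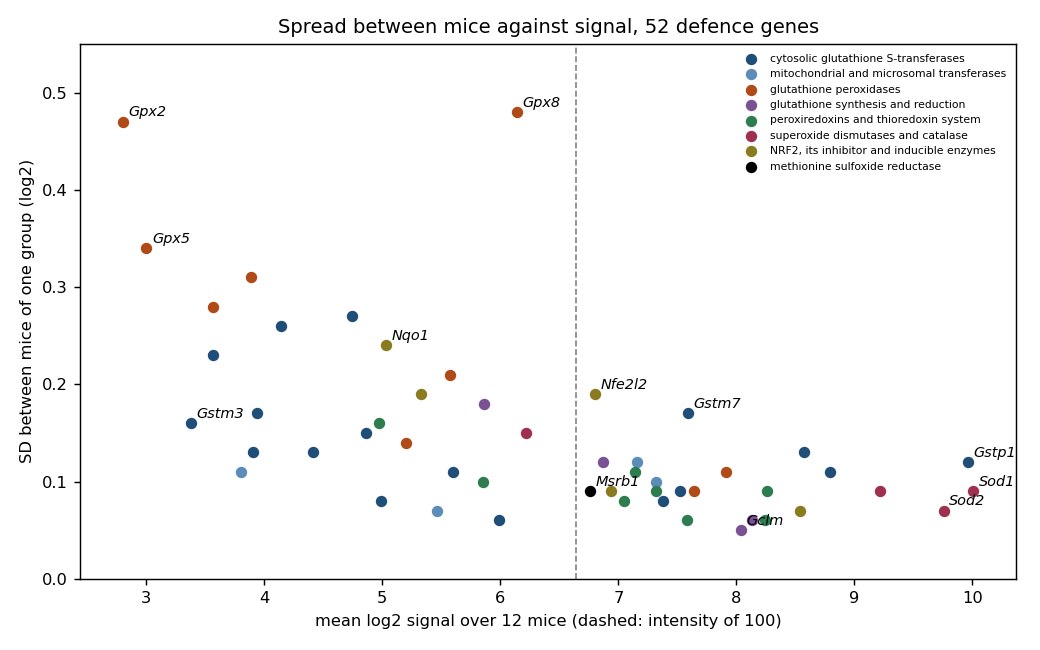
Each point is 1 of the 52 defence genes, with the mean log2 signal over 12 mice on the x axis and the SD between mice of one group (log2) on the y axis; colours give the family and the dashed line an intensity of 100. The 26 genes right of the line all have an SD of 0.19 or less, while the dim genes reach 0.48.

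No defence gene passed an adjusted p of 0.05 in any of the 8 comparisons (limma with Benjamini-Hochberg adjustment over all 41345 clusters), nor in the F test over the 4 groups. Over all clusters, none passed (0%) for App RD against WT RD, App HFD against WT HFD, WT HFD against WT RD, App HFD against App RD, App HFD against WT RD, the diet effect, the interaction or the F test, and 0.00242% passed for the genotype effect. The smallest adjusted p of a defence gene lay between 0.706 and 0.999 over the 8 comparisons, and was 0.81 in the F test. At an unadjusted p under 0.05 there were 18 of 416 combinations of gene and comparison, or 4.33%, against 5.37% for all clusters. They belonged to 10 genes, and the other 42 genes had none.

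Read singly, an unadjusted p under 0.05 was reached by 3 of 52 defence genes for App RD against WT RD (6.18% of all clusters), 3 for App HFD against WT HFD (5.31%), 2 for WT HFD against WT RD (5.22%) and 1 for App HFD against App RD (4.62%). It was reached by 3 for App HFD against WT RD (5.19%), 1 for the genotype effect over both diets (6.47%), 3 for the diet effect over both genotypes (4.97%), 2 for the interaction (4.97%) and 1, Msrb1, in the F test (5.69%). Each share of the 52, from 1.92% to 5.77%, lay near or below that of all clusters, so the counts set these genes apart from no other part of the array.

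**Figure D2:**
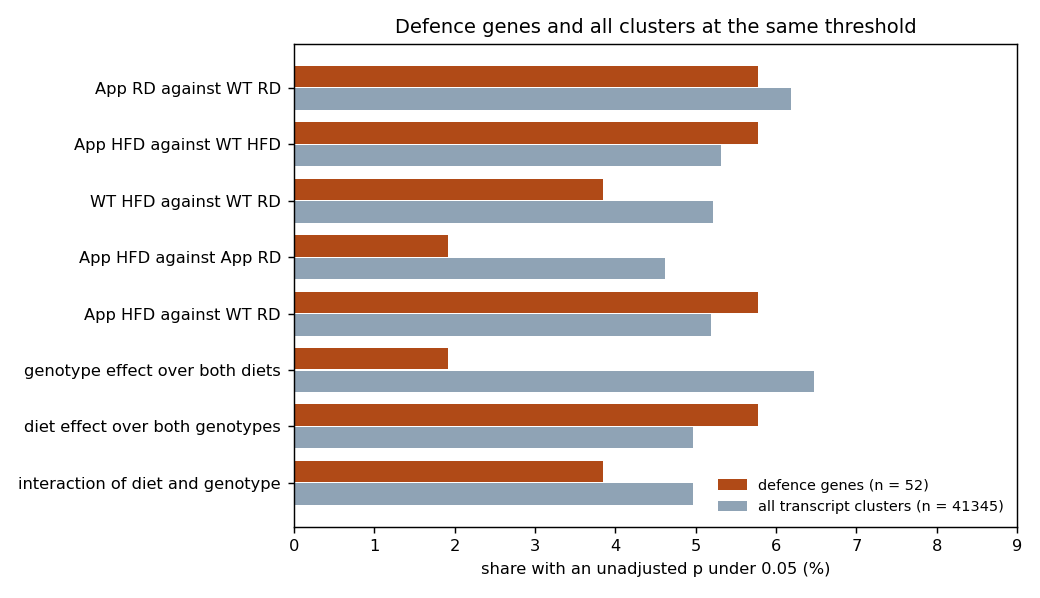
Bars give the share (%) of the 52 defence genes and of all 41345 clusters with an unadjusted limma p under 0.05, in each of the 8 comparisons. The defence genes range from 1.92% to 5.77% and all clusters from 4.62% to 6.47%.

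Groups whose 3 and 3 mice did not overlap gave the same picture. There were 6 such defence genes (11.5%) for App RD against WT RD, where 10.9% of all clusters separated, 5 (9.62%) for App HFD against WT HFD (11.6% of all clusters), and 6 (11.5%) for WT HFD against WT RD (10.3%). For App HFD against App RD there were 4 (7.69%, against 9.62% of all clusters) and for App HFD against WT RD 5 (9.62%, against 10.5%).

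The median log2 difference of the 52 genes was between -0.04 and 0.03 in all 8 comparisons, and that of all clusters within 0.005 of 0. In App RD mice 18 were higher and 34 lower than in WT RD mice (median -0.04), and in App HFD mice 30 were higher and 22 lower than in App RD mice (median 0.03). The 95% interval lay inside a 1.5-fold change either way for 43 of the 52 genes, all 26 bright ones included, for App RD against WT RD. The corresponding numbers were 46 for App HFD against WT HFD, 47 for WT HFD against WT RD, 46 for App HFD against App RD, 44 for App HFD against WT RD, 50 for each of the genotype and diet effects, and 36 for the interaction. All 26 bright genes were among them except for App HFD against App RD, with 25, and the interaction, with 23.

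**Figure D3:**
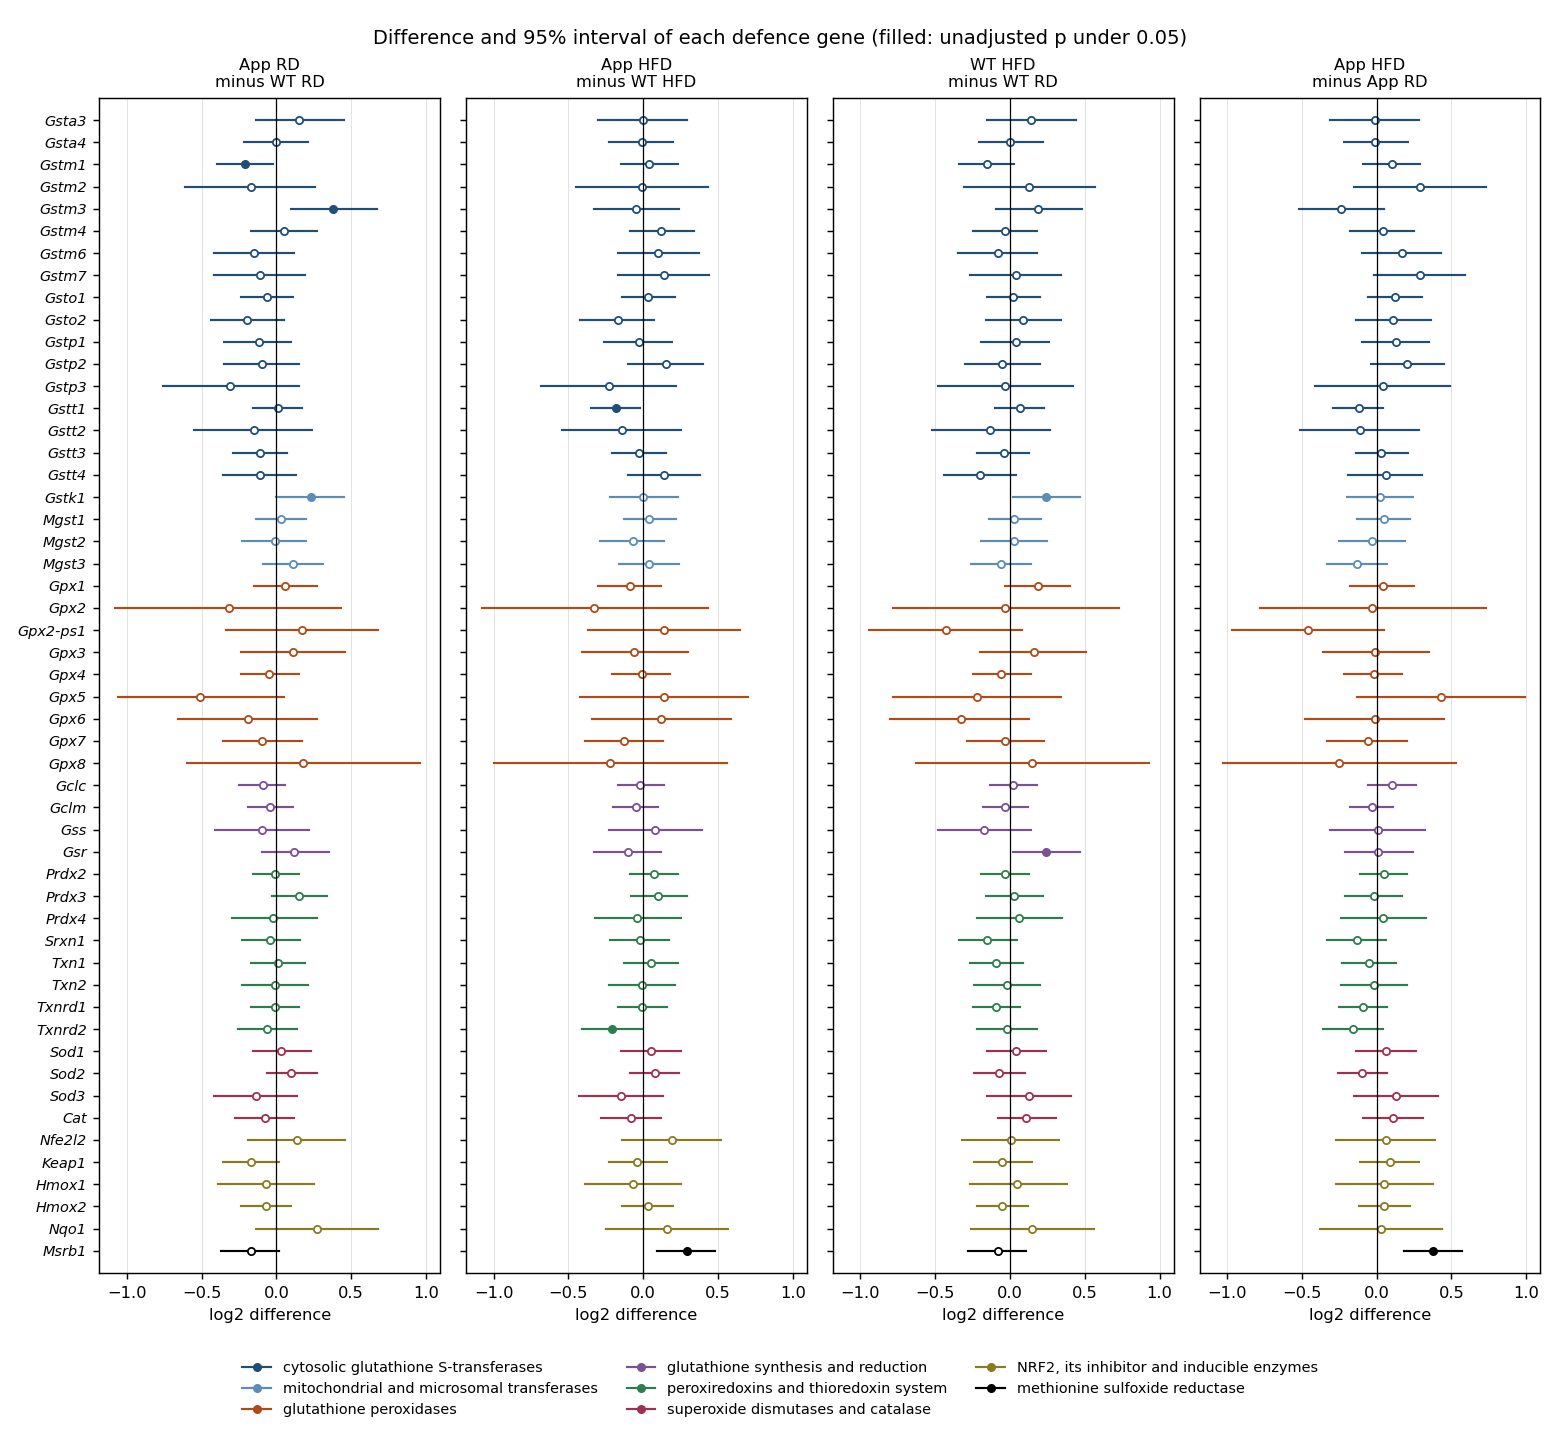
Points give the log2 difference of each of the 52 defence genes in 4 comparisons and lines its 95% interval from the limma fit; filled points have an unadjusted p under 0.05 and colours mark the family. Msrb1, at the bottom, is the only filled point for App HFD minus App RD, at 0.38.

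Comparisons that share no mouse could be set side by side. With HFD 17 genes were higher in both genotypes and 14 lower in both, so that 59.6% had the same direction, against 49.9% of all clusters. In App mice 11 were higher on both diets and 22 lower on both, 63.5% against 52.6% of all clusters. These are signs of differences that mostly lay within the spread between mice, and genes are not independent replicates.

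Msrb1 encodes a selenium-dependent methionine sulfoxide reductase, which repairs oxidised methionine in proteins of the cytosol and nucleus. Its log2 signal was 6.67, 6.82 and 6.82 in the WT RD mice, 6.70, 6.53 and 6.83 in WT HFD, 6.63, 6.55 and 6.60 in App RD, and 6.92, 7.02 and 6.97 in App HFD. The 3 App HFD mice were above all 9 other mice, and the 3 App RD mice lay below the 3 WT RD mice. App HFD exceeded App RD by 0.38 ± 0.09 (SE), that is 29.9% with a 95% interval of 13.4% to 48.8%, with an unadjusted limma p of 0.00152 and an adjusted p of 0.999. Against WT HFD the difference was 0.29 ± 0.09 (unadjusted p = 0.0085 and adjusted p = 0.925 by limma), and against WT RD 0.20 ± 0.09 (unadjusted p = 0.0439). The last was 0.15 (unadjusted p = 0.149) without the WT RD mouse of replicate 1. App RD against WT RD gave -0.17, with an interval of -0.37 to 0.02.

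In wild-type mice the HFD difference of Msrb1 was -0.08, with an interval of -0.28 to 0.11. The difference between the diet responses, tested as the interaction, was 0.46 ± 0.12 with an interval of 0.18 to 0.74 (limma, unadjusted p = 0.00397 and adjusted p = 0.97). Its F test over the 4 groups had an unadjusted p of 0.00901, the smallest of the 52 genes. The 3 other methionine sulfoxide reductases measured had no unadjusted p under 0.05 in any comparison, with a median of -0.04 for App HFD against App RD.

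Markers of other cells were read beside Msrb1. For App HFD against App RD, 5 of 5 oligodendrocyte markers were higher, 1 of them with an unadjusted p under 0.05, and the list mean ran from 8.58 to 8.69 in App HFD and from 8.24 to 8.57 in App RD. Of 8 microglial markers 7 were higher, 1 with an unadjusted p under 0.05, with list means of 7.33 to 7.54 and 7.28 to 7.49. All 9 choroid plexus markers were lower, none with such a p, with list means of 5.39 to 7.36 and 5.36 to 7.91. The 3 dentate granule cell markers were all higher in App HFD than in App RD (median 0.21) and all lower in App RD than in WT RD (median -0.12), 1 of them in the latter with an unadjusted p under 0.05, with list means of 8.39 to 8.72 in App HFD and 8.11 to 8.45 in App RD. Mural cell markers were higher in 4 of 5 (median 0.18) and meningeal fibroblast markers in 5 of 7 (median 0.14), none with such a p. Neuronal markers were lower in 5 of 6 (median -0.03) and astrocyte markers in 5 of 7 (median -0.04). Endothelial markers were higher in 3 of 5 (median 0.03), and no marker of these 3 lists had such a p. The part of these cells in the Msrb1 values was not tested. In whole tissue, fewer cells of a type and less RNA per cell cannot be told apart.

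**Figure D4:**
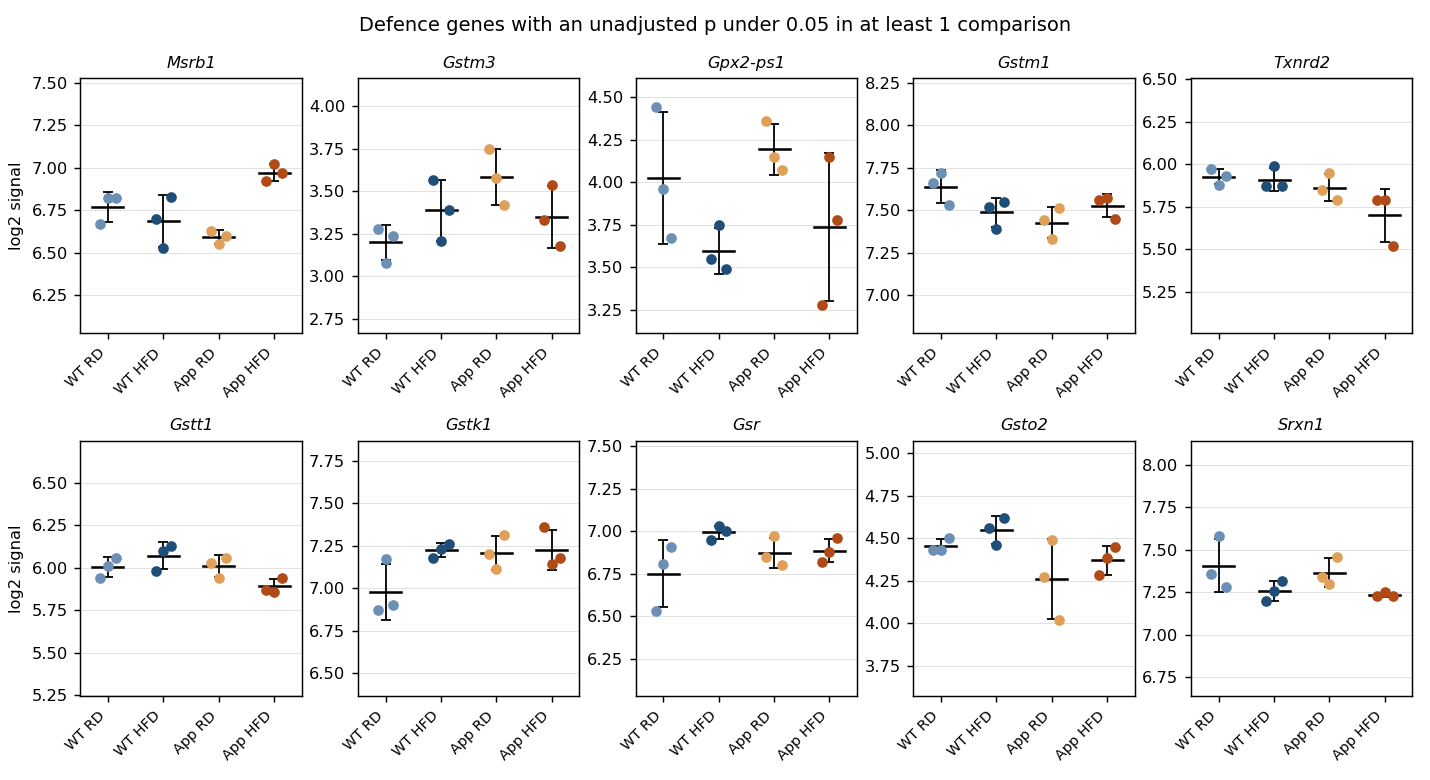
Log2 signal of each mouse for the 10 defence genes with an unadjusted p under 0.05 in at least 1 comparison; long bars are group means, error bars are the SD of 3 mice, and every panel spans the same 1.5 log2 units. For Msrb1 the 3 App HFD mice, at 6.92 to 7.02, are above the other 9, at 6.53 to 6.83, and for Gstk1 and Gsr the lowest mouse is a WT RD mouse, at 6.87 and 6.53.

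The 17 cytosolic glutathione S-transferases, which attach glutathione to electrophiles, had mean signals from 3.38 (Gstm3) to 9.96 (Gstp1), and 11 of them were dim. For App RD against WT RD, 13 were lower and 4 higher, with a median of -0.11, and 2 of the 17 had an unadjusted p under 0.05 (6.18% of all clusters), in opposite directions. For App HFD against App RD, 12 were higher and 5 lower (median 0.06), none with such a p. WT HFD against WT RD gave 9 higher and 8 lower (median 0.00). Members of the Mu class are close in sequence, so that probes of one may also bind the RNA of another.

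Gstm1, a Mu-class enzyme of liver and astrocytes, read 7.66, 7.72 and 7.53 in WT RD, 7.52, 7.39 and 7.55 in WT HFD, 7.44, 7.33 and 7.51 in App RD, and 7.56, 7.57 and 7.45 in App HFD. All App RD values lay below all WT RD values, and both HFD-fed groups overlapped each of them. The App RD minus WT RD difference was -0.21 ± 0.09 (limma, unadjusted p = 0.032 and adjusted p = 0.778). Without the App RD mouse of replicate 2 it was -0.16 (unadjusted p = 0.115), and without the WT RD mouse of replicate 2 it was -0.17 (unadjusted p = 0.11).

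The dim Gstm3 cluster read 3.28, 3.08 and 3.24 in WT RD, 3.57, 3.21 and 3.39 in WT HFD, 3.75, 3.58 and 3.42 in App RD, and 3.33, 3.54 and 3.18 in App HFD. App RD was above WT RD in every mouse, by 0.38 ± 0.13 (limma, unadjusted p = 0.0135 and adjusted p = 0.706), and the other pairs of groups overlapped. On HFD the genotype difference was -0.05, so the interaction came to -0.43 ± 0.18 (limma, unadjusted p = 0.04 and adjusted p = 0.983). Without the App RD mouse of replicate 1 the difference on RD was 0.30 (unadjusted p = 0.0569) and the interaction -0.35 (unadjusted p = 0.0943).

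Gstt1, of the Theta class, read 5.98, 6.10 and 6.13 in WT HFD and 5.87, 5.86 and 5.94 in App HFD, with WT RD at 5.94, 6.01 and 6.06 and App RD at 6.03, 5.94 and 6.06. The HFD-fed groups did not overlap, and the App HFD mean was lower by -0.18 ± 0.07 (limma, unadjusted p = 0.0336 and adjusted p = 0.925). Without the WT HFD mouse of replicate 3 it was -0.15 (unadjusted p = 0.107). Gsto2, an Omega-class enzyme that also reduces dehydroascorbate, read 4.43, 4.43 and 4.50 in WT RD, 4.56, 4.46 and 4.62 in WT HFD, 4.27, 4.49 and 4.02 in App RD, and 4.28, 4.38 and 4.45 in App HFD. Its genotype effect over both diets was -0.18 ± 0.08 (limma, unadjusted p = 0.0412 and adjusted p = 0.763), with overlap on RD and none on HFD. Leaving out the App RD mouse of replicate 3, the lowest of the 12, gave -0.12 with an unadjusted p of 0.0873. The other 13 cytosolic transferases had no unadjusted p under 0.05, with Gstp3 at -0.31 for App RD against WT RD and Gstm2 and Gstm7 at 0.29 for App HFD against App RD at the ends of their range.

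Among the mitochondrial and microsomal transferases, Gstk1, the Kappa-class enzyme of mitochondria and peroxisomes, stood lowest in WT RD. It read 6.87, 7.17 and 6.90 there, 7.18, 7.23 and 7.26 in WT HFD, 7.20, 7.11 and 7.31 in App RD, and 7.36, 7.14 and 7.18 in App HFD. The WT RD mice of replicates 1 and 3 were below the remaining 10 mice, and only WT HFD was clear of all 3 WT RD mice. The differences from WT RD were 0.24 ± 0.10 for WT HFD, 0.23 ± 0.10 for App RD and 0.25 ± 0.10 for App HFD (limma, unadjusted p = 0.0358, 0.0483 and 0.0339, and adjusted p = 0.947, 0.804 and 0.931). These 3 comparisons share the same 3 control mice and do not support one another. Without the WT RD mouse of replicate 1, the WT HFD difference was 0.19 (unadjusted p = 0.122) and the App RD difference 0.17 (unadjusted p = 0.155). Without the App HFD mouse of replicate 1, the App HFD difference was 0.18 (unadjusted p = 0.13). App HFD differed from App RD by 0.02, with an interval of -0.20 to 0.24. Mgst1, Mgst2 and Mgst3, membrane-bound transferases with peroxidase activity, had differences between -0.13 and 0.11 in these comparisons, none with an unadjusted p under 0.05.

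Glutathione peroxidases reduce hydrogen peroxide and, for Gpx4, phospholipid hydroperoxides within membranes. Of the 9 clusters 2 were bright. Gpx1, the abundant cytosolic enzyme, read 7.81, 7.86 and 7.81 in WT RD, 7.95, 8.20 and 7.89 in WT HFD, 7.76, 7.97 and 7.94 in App RD, and 7.87, 7.94 and 7.97 in App HFD. WT HFD lay above WT RD in every mouse, by 0.19 with an interval of -0.03 to 0.40 (limma, adjusted p = 0.971). Gpx4 read 7.67, 7.74 and 7.65 in WT RD, 7.75, 7.65 and 7.50 in WT HFD, 7.57, 7.65 and 7.70 in App RD, and 7.50, 7.71 and 7.64 in App HFD. All 4 groups overlapped, and every pairwise interval for Gpx4 lay between -0.26 and 0.18.

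The 7 dim clusters of this family, Gpx2, Gpx2-ps1, Gpx3, Gpx5, Gpx6, Gpx7 and Gpx8, gave pairwise differences from -0.51 (Gpx5, App RD against WT RD) to 0.43 (Gpx5, App HFD against App RD), and the interaction of Gpx5 was 0.65 with an interval of -0.14 to 1.44. None of these 3 values had an unadjusted p under 0.05. Gpx2-ps1 is a pseudogene, included because its symbol begins as the rule asks. It read 4.44, 3.96 and 3.67 in WT RD, 3.55, 3.75 and 3.49 in WT HFD, 4.36, 4.15 and 4.07 in App RD, and 3.28, 4.15 and 3.78 in App HFD. Its diet effect over both genotypes was -0.44 ± 0.16 (limma, unadjusted p = 0.021 and adjusted p = 0.979), with RD and HFD mice overlapping in each genotype. Its probes may also read the parent gene Gpx2, whose own diet effect was -0.03 with an interval of -0.56 to 0.51.

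Of the 4 genes of glutathione synthesis and reduction, 3 were bright. Gclc, the catalytic subunit of the rate-limiting ligase, read 8.21, 8.17 and 8.07 in WT RD, 8.17, 8.10 and 8.24 in WT HFD, 8.07, 8.07 and 8.02 in App RD, and 8.20, 8.16 and 8.11 in App HFD. App RD lay below App HFD in every mouse, by 0.10 with an interval of -0.06 to 0.26. Gclm and the dim Gss, glutathione synthetase, had differences between -0.17 and 0.08 in the 4 pairwise comparisons of one factor.

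Gsr, glutathione reductase, read 6.53, 6.81 and 6.91 in WT RD, 6.95, 7.03 and 7.0 in WT HFD, 6.85, 6.97 and 6.80 in App RD, and 6.82, 6.88 and 6.96 in App HFD. The WT HFD mice were above the WT RD mice by 0.24 ± 0.10, or 18.2% (limma, unadjusted p = 0.0375 and adjusted p = 0.947). Without the WT RD mouse of replicate 1, the lowest of the 12, the difference was 0.13 with an unadjusted p of 0.165. In App mice the HFD difference of Gsr was 0.01, and the interaction was -0.23 with an interval of -0.55 to 0.09.

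Deviations from the group mean correlated at 0.331, 0.124 and 0.109 between same-numbered WT RD and WT HFD mice. A different-numbered pair, WT RD replicate 2 with WT HFD replicate 3, reached 0.185, and the labels state no pairing. The diet comparison in wild-type mice is still also given with the replicate number as a block. Fitted to the 6 wild-type arrays alone, 0 of 52 defence genes had an unadjusted p under 0.05 with the block. The same arrays without the block also gave 0, against 2 in the fit to all 12 arrays, so the 0 cannot be credited to the block. With it, Gstk1 was at 0.24 (unadjusted p = 0.0794) and Gsr at 0.24 (unadjusted p = 0.0816). With the block over all 12 arrays, Gsr kept such a p (0.0311) and Gstk1 did not (0.0588). Vascular markers moved with this comparison: 5 of 5 mural cell markers were higher in WT HFD than in WT RD, 3 with an unadjusted p under 0.05, with list means of 7.16 to 7.33 and 6.76 to 7.01. The 5 endothelial markers were also all higher, 2 with such a p, with list means of 6.58 to 6.97 and 6.38 to 6.66, and so were all 7 meningeal fibroblast markers, none with such a p. Their part in the Gstk1 and Gsr values was not tested.

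Peroxiredoxins reduce peroxides through a cysteine that thioredoxin restores. The 8 genes of this family, Prdx2, Prdx3, Prdx4, Srxn1, Txn1, Txn2, Txnrd1 and Txnrd2, had differences from -0.21 to 0.15 in the 4 pairwise comparisons of one factor. The range was wider in the cytosolic transferases (-0.31 to 0.38) and the glutathione peroxidases (-0.51 to 0.43), with the dim Gstp3, Gstm3 and Gpx5 at its ends. Here 6 of 8 genes were bright, against 6 of 17 and 2 of 9 there, and the part of signal level in these widths was not tested. Among the 8 genes Prdx3, the mitochondrial peroxiredoxin, had the highest difference, at 0.15 for App RD against WT RD with an interval of -0.03 to 0.34. Txnrd2, the mitochondrial thioredoxin reductase, had the lowest.

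Txnrd2 read 5.97, 5.88 and 5.93 in WT RD, 5.87, 5.99 and 5.87 in WT HFD, 5.85, 5.95 and 5.79 in App RD, and 5.79, 5.79 and 5.52 in App HFD. The 3 App HFD mice were below all 6 wild-type mice, by -0.21 ± 0.09 against WT HFD and -0.22 ± 0.09 against WT RD (limma, unadjusted p = 0.0452 and 0.0324, and adjusted p = 0.925 and 0.927). The App HFD mouse of replicate 3 was the lowest of the 12, and without it the differences were -0.12 (unadjusted p = 0.199) and -0.13 (unadjusted p = 0.146).

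Srxn1, sulfiredoxin, which repairs over-oxidised peroxiredoxins, read 7.36, 7.58 and 7.28 in WT RD, 7.20, 7.26 and 7.32 in WT HFD, 7.34, 7.30 and 7.46 in App RD, and 7.23, 7.25 and 7.23 in App HFD. The App HFD mice were below the App RD mice, and the wild-type groups overlapped. Its diet effect over both genotypes was -0.14 ± 0.06 (limma, unadjusted p = 0.0492 and adjusted p = 0.979), and -0.10 with an unadjusted p of 0.116 without the WT RD mouse of replicate 2. Txnrd1, the cytosolic reductase, had a diet difference of -0.09 in each genotype, with intervals of -0.25 to 0.07.

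The dismutases and catalase showed no unadjusted p under 0.05 in any comparison. Sod1, the cytosolic copper and zinc enzyme, read 10.00, 10.00 and 9.91 in WT RD, 9.97, 10.19 and 9.88 in WT HFD, 9.99, 10.03 and 10.00 in App RD, and 10.11, 9.97 and 10.11 in App HFD. Its groups overlapped in all 4 pairwise comparisons of one factor, and App HFD exceeded App RD by 0.06, that is 4.08% with an interval of -9.26% to 19.4%. Sod2, the mitochondrial manganese enzyme, read 9.75, 9.76 and 9.74 in WT RD, 9.73, 9.70 and 9.61 in WT HFD, 9.76, 9.92 and 9.87 in App RD, and 9.73, 9.69 and 9.85 in App HFD. Its WT HFD values lay just below those of WT RD, by -0.07 with an interval of -0.24 to 0.10, and its genotype effect over both diets was 0.09 with an interval of -0.03 to 0.21.

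Sod3, the extracellular enzyme bound to vessel walls, read 6.26, 6.34 and 6.06 in WT RD, 6.32, 6.36 and 6.39 in WT HFD, 5.88, 6.07 and 6.29 in App RD, and 6.02, 6.38 and 6.22 in App HFD. Its genotype effect over both diets was -0.15 and its diet effect over both genotypes 0.13, with intervals of -0.34 to 0.05 and -0.07 to 0.33. Catalase (Cat), the peroxisomal enzyme, read 9.25, 9.22 and 9.14 in WT RD, 9.37, 9.34 and 9.26 in WT HFD, 8.94, 9.23 and 9.21 in App RD, and 9.28, 9.25 and 9.18 in App HFD. WT HFD lay above WT RD in every mouse, by 0.11 with an interval of -0.08 to 0.31, and the HFD difference in App mice was also 0.11, with the low App RD mouse of replicate 1 at 8.94.

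Nfe2l2, its inhibitor Keap1, Hmox1, Hmox2 and Nqo1 had no unadjusted p under 0.05 in any comparison. For App HFD against App RD these 5 gave differences of 0.03 to 0.09, while of the NRF2 targets described with their own families Gclc gave 0.10, Gclm -0.03, Txnrd1 -0.09 and Srxn1 -0.13. Nfe2l2 read 6.71, 6.82 and 6.60 in WT RD, 6.49, 6.79 and 6.87 in WT HFD, 6.59, 6.82 and 7.14 in App RD, and 6.79, 6.96 and 6.98 in App HFD. The groups overlapped in every pairwise comparison, and the genotype effect over both diets was 0.16 with an interval of -0.07 to 0.39. The Keap1 cluster with the higher signal read 7.02, 7.02 and 7.0 in WT RD, 7.02, 6.98 and 6.91 in WT HFD, 6.90, 6.66 and 6.97 in App RD, and 6.91, 6.98 and 6.91 in App HFD. App RD lay below WT RD in every mouse, by -0.17 with an interval of -0.36 to 0.02. That difference had an unadjusted limma p under 0.05 in 3 of 20 alternative settings. The genotype effect of Keap1 over both diets, -0.10, had such a p in 1 of 19. A second, dimmer Keap1 cluster gave -0.15 for App RD against WT RD and -0.20 for the genotype effect over both diets (unadjusted p = 0.0521 by limma).

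Hmox1, the inducible heme oxygenase, read 5.42, 5.38 and 5.20 in WT RD, 5.49, 5.21 and 5.46 in WT HFD, 5.36, 4.99 and 5.43 in App RD, and 5.08, 5.46 and 5.41 in App HFD, with all groups overlapping. The constitutive Hmox2 differed by -0.07 to 0.05 in the 4 comparisons of one factor. Nqo1, a quinone reductase and the usual reporter of NRF2 activity, read 4.71, 5.12 and 4.73 in WT RD, 4.99, 4.87 and 5.15 in WT HFD, 4.80, 5.18 and 5.39 in App RD, and 5.47, 4.98 and 5.01 in App HFD. The highest and lowest values of Nqo1 were in App HFD and WT RD, the groups overlapped, and App HFD against WT RD gave 0.30 with an interval of -0.11 to 0.71.

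**Figure D5:**
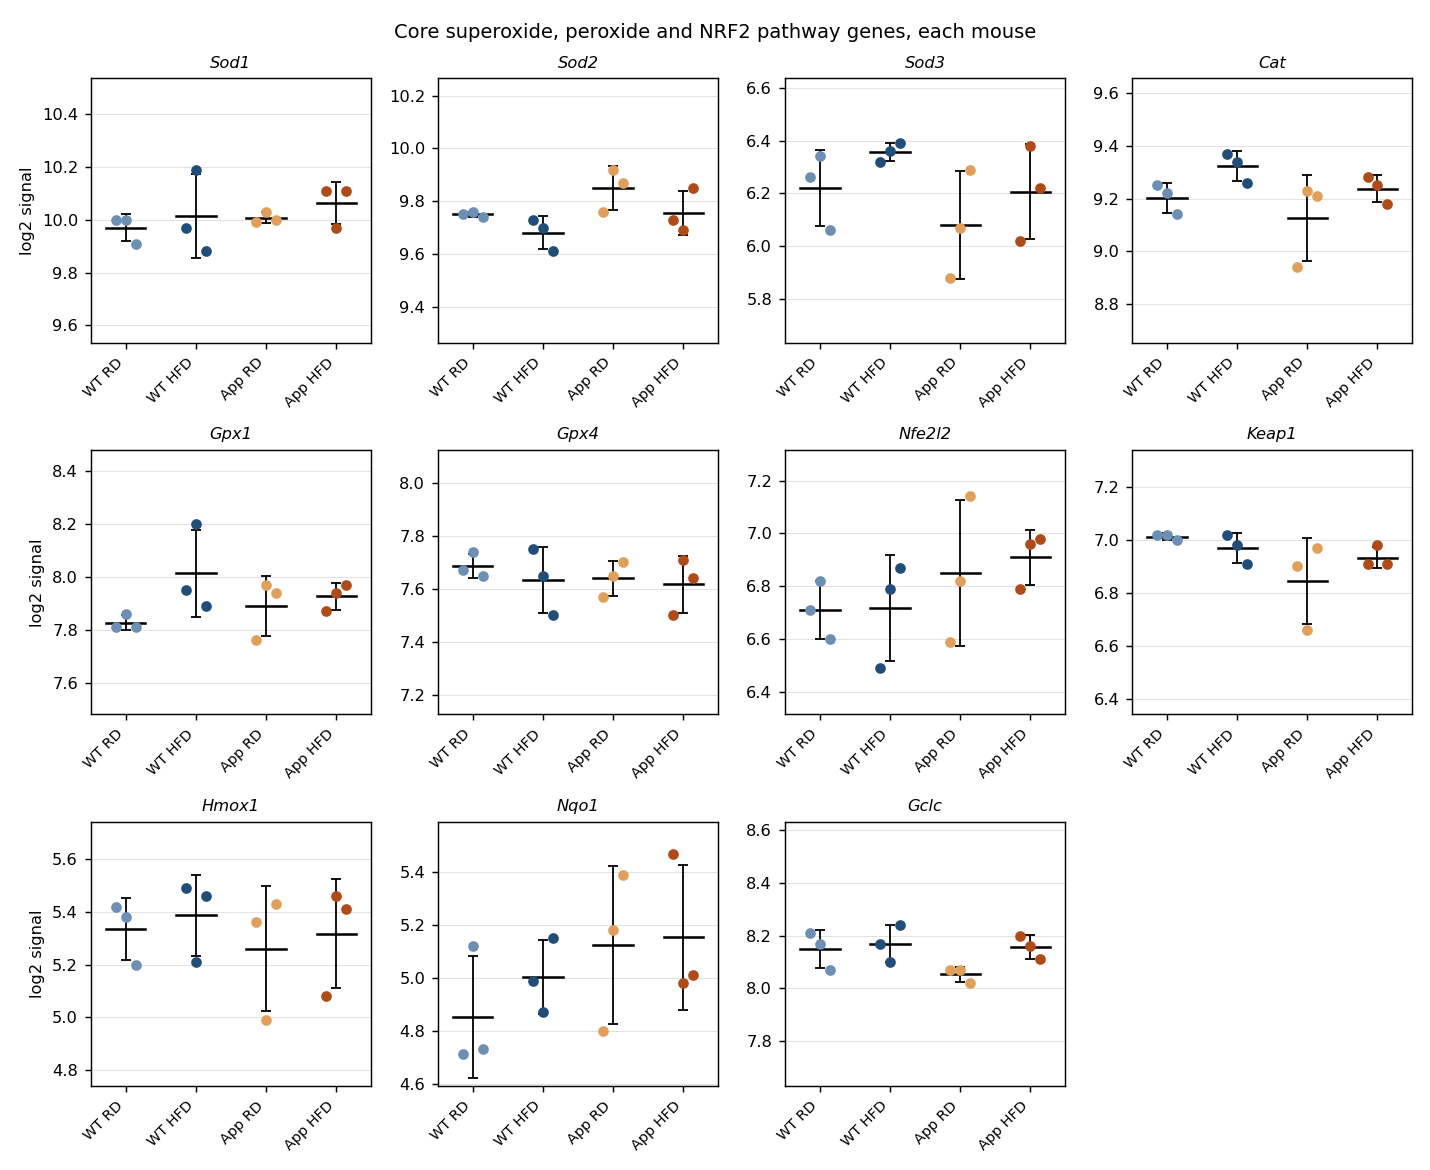
Log2 signal of each mouse for 11 core genes of superoxide, peroxide and NRF2 metabolism; long bars are group means, error bars are the SD of 3 mice, and every panel spans 1 log2 unit. Sod1, Gpx4 and Hmox1 overlap between all groups, and Nfe2l2 spreads most in App RD, from 6.59 to 7.14.

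Microglial markers differed with genotype at the unadjusted level. Of 8 microglial markers 7 were higher in the genotype effect over both diets, 6 with an unadjusted p under 0.05 and a median of 0.25, none with an adjusted p under 0.05. Their list mean ran from 7.06 to 7.25 in the 6 wild-type mice and from 7.28 to 7.54 in the 6 App mice. Astrocyte markers were higher in 6 of 7, 2 with an unadjusted p under 0.05, with a median of 0.14. The part of these cells in the values of Gstm1, Gsto2 and Txnrd2 was not tested.

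Beyond the 52 genes, 104 of 115 further genes of the pathway were measured, in 9 lists. None passed an adjusted p of 0.05 by limma, and 46 of 832 combinations of gene and comparison (5.53%) had an unadjusted p under 0.05, against 5.37% for all clusters, so that the counts by list below are parts of a total at the background share. Other NRF2 targets had 0 of 128 combinations at that level over 16 genes, with medians between -0.02 and 0.02, and NRF2 partners and repressors 4 of 64, 3 higher and 1 lower. Glutathione turnover genes and glutaredoxins had 8 of 152, all higher, the rest of the thioredoxin system 3 of 88, all higher, and the other methionine sulfoxide reductases 0 of 24. Selenoprotein genes had 8 higher and 1 lower of 136, and sources of superoxide 8 higher and 5 lower of 96. Copper, iron and metal genes had 6 higher of 72, and other antioxidant enzymes 1 higher and 2 lower of 72. A gene can enter such a count once per comparison, and many comparisons share mice, so these are not counts of genes. All 6 combinations of the metal genes came from Cp and Tfrc. Most of the 8 higher selenoprotein combinations came from Selenop and Selenos.

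The smallest p of these lists belonged to Selenop, selenoprotein P, which carries selenium. Selenop read 6.45, 6.47 and 6.24 in WT RD, 6.38, 6.57 and 6.56 in WT HFD, 6.67, 6.71 and 6.65 in App RD, and 6.70, 6.75 and 6.63 in App HFD. Every App mouse was above every wild-type mouse, by 0.24 ± 0.06 over both diets (limma, unadjusted p = 0.00255 and adjusted p = 0.516). Selenos, a selenoprotein of the endoplasmic reticulum, was higher in App HFD than in WT HFD by 0.28 ± 0.09 (limma, unadjusted p = 0.00843). Cyba, the p22phox subunit of NADPH oxidase, was 5.58, 5.58 and 5.74 in WT RD and 6.02, 6.14 and 5.87 in App HFD. The difference was 0.38 ± 0.10 (limma, unadjusted p = 0.00371 and adjusted p = 0.689). The HFD difference of Cyba was 0.25 in WT and 0.23 in App mice (limma, unadjusted p = 0.0354 and 0.0439), with an interaction of -0.01. Its diet effect over both genotypes was 0.24 ± 0.07 (limma, unadjusted p = 0.00727 and adjusted p = 0.937). Its genotype effect over both diets was 0.14 ± 0.07 (limma, unadjusted p = 0.0802).

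Cp, ceruloplasmin, a copper-carrying ferroxidase, was 6.50, 6.88 and 6.47 in WT RD and 7.15, 6.91 and 7.30 in App HFD. The differences from WT RD were 0.50 ± 0.14 for App HFD, 0.44 ± 0.14 for WT HFD and 0.35 ± 0.14 for App RD. Their unadjusted p was 0.00416, 0.00878 and 0.029 by limma, and their adjusted p 0.707, 0.899 and 0.774. These comparisons share the same WT RD mice and do not support one another. App HFD differed from App RD by 0.15 and from WT HFD by 0.06 (limma, unadjusted p = 0.285 and 0.67). The diet effect of Cp over both genotypes was 0.30 ± 0.10 (limma, unadjusted p = 0.0113 and adjusted p = 0.965). Tfrc, the transferrin receptor, had a diet effect over both genotypes of 0.20 ± 0.06 (limma, unadjusted p = 0.0104). Bdh2, a cytosolic dehydrogenase linked to iron handling, was 5.05, 4.94 and 5.14 in WT HFD and 4.55, 4.75 and 4.59 in App HFD, a difference of -0.41 ± 0.10 (limma, unadjusted p = 0.00261 and adjusted p = 0.854). WT HFD was also above WT RD, by 0.32 ± 0.10 (limma, unadjusted p = 0.0123). App HFD differed from App RD by -0.22 and from WT RD by -0.10 (limma, unadjusted p = 0.0614 and 0.382). The interaction of Bdh2 was -0.54 ± 0.15 (limma, unadjusted p = 0.00443 and adjusted p = 0.97).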

How the data were processed

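The authors hybridised 100 ng of hippocampal RNA per mouse to 1 Affymetrix Mouse Gene 2.0 ST array and imported the scans into Transcriptome Analysis Console, and the values they deposited are log2 signals per transcript cluster. The sources used here do not give the normalization method, so nothing further was applied to the deposited values, and 0 columns were left unmapped. Gene names came from the platform annotation: 23521 clusters had 1 symbol, 1820 several and 16004 none. Arrays give no depth, and 3 mice a group limit the precision.

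One mean per group was fitted to all 12 arrays with limma 3.58.1 (lmFit and eBayes, R 4.3.3), p-values were adjusted by Benjamini-Hochberg over 41345 clusters, and intervals are 95%. An intensity of 100 separated bright from dim clusters. The fit was tested on simulated data. Values of each mouse are given for the 10 genes with an unadjusted p under 0.05 in at least 1 comparison and for a fixed list of 13, of which Prdx1 and Prdx6 had no cluster of their own; of the other pathway genes, the 6 with the smallest p were named. The members and lists were chosen with earlier results of these data known. Motif searches used RefSeq promoters (GRCm38.p6) and Python 3.11.15.

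Alternatives were an intensity trend with robust spread, bright clusters only, only the groups compared, quantile normalization, subtraction of array medians, array weights, the mean of a gene's clusters, a replicate block, and leaving out each mouse. The labels number the mice of each group 1 to 3 without stating a shared litter or day. Deviations of same-numbered mice from their group means correlated between -0.09 and 0.331 over 18 pairs (median 0.033). Different-numbered pairs gave -0.254 to 0.185 over 36 pairs (median -0.034). The 3 same-numbered WT RD and WT HFD pairs all exceeded 0.1 (0.109, 0.124 and 0.331), which does not establish a pairing. The block in the wild-type arrays alone was added after seeing the data.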

Additional observations from a re-analysis of the deposited data

Results flagged for a closer look

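The diet response of 2 of the 52 defence genes differed between the genotypes at an unadjusted p under 0.05 in limma's test of the interaction (3.85%, against 4.97% of all clusters). Neither passed the adjustment over all clusters. For Msrb1 the HFD minus RD difference was 0.38 in App mice and -0.08 in WT mice, and the difference between them was 0.46 ± 0.12 (unadjusted p = 0.00397 and adjusted p = 0.97), with all 3 App HFD mice above all 3 App RD mice and the wild-type groups overlapping. For Gstm3 the HFD minus RD difference was -0.24 in App mice and 0.19 in WT mice, and the difference between them was -0.43 ± 0.18 (unadjusted p = 0.04 and adjusted p = 0.983), with RD and HFD mice overlapping in both genotypes and all signals far below an intensity of 100.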

How the results depend on the processing

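Over 21 alternative settings, 12 of which left out a mouse, no defence gene passed an adjusted p of 0.05 in any of the 158 counts made by limma, and the median of the 52 genes stayed between -0.06 and 0.06 in every comparison. Counts at an unadjusted p under 0.05 are small, and each moved in at least 1 setting. They are given here without the share of all clusters in the same setting, so none can be read as above or below that share. With array medians subtracted they were 1 for App HFD against WT HFD, 0 for WT HFD against WT RD and 1 for the diet effect. With the intensity trend they were 2 for App HFD against App RD and 2 for the genotype effect. With a gene's clusters averaged they were 2 for the genotype effect, and Keap1 is the only defence gene with clusters to average. Among bright clusters only, which hold 26 of the 52 defence genes, they were 5 for App RD against WT RD. In that setting they were 1 for App HFD against WT HFD and 2 for App HFD against App RD, also out of 26. With only the groups compared in the fit they were 1, 1, 0 and 0 for App RD against WT RD, App HFD against WT HFD, WT HFD against WT RD and App HFD against WT RD. The replicate block gave 1 for WT HFD against WT RD and 1 for the diet effect, and the block in the wild-type arrays alone gave 0. It moved no other count by over 1.5 times. Leaving out a mouse gave 1 to 5 for App RD against WT RD, 1 to 3 for App HFD against WT HFD, 0 to 4 for WT HFD against WT RD, 1 to 4 for App HFD against App RD, 0 to 3 for App HFD against WT RD, 0 to 4 for the genotype effect, 1 to 4 for the diet effect and 1 to 4 for the interaction. The cause of these moves was not tested.

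None of the 18 single differences with an unadjusted p under 0.05 reversed, and 4 kept that p in all settings that tested them: Msrb1 for App HFD against App RD (0.35 to 0.40, p 0.000344 to 0.00711), for App HFD against WT HFD (0.21 to 0.36) and for the interaction (0.38 to 0.53), and Gpx2-ps1 for the diet effect (-0.55 to -0.33), which bright clusters alone leave out. Of the 150 other differences of named genes, 55 changed sign at least once and 24 had an unadjusted p under 0.05 in some setting. No scaling moved the median of all clusters by over 0.1.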
